A study of Rattus norvegicus with 20 samples.

Results

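The miRNA profile of the soleus muscle was compared with that of the lumbar dorsal root ganglia (DRGs), the clusters of sensory nerve cell bodies beside the spinal cord, on single-colour Agilent rat miRNA arrays. All 20 of the 20 arrays of the study were used, 10 of soleus and 10 of DRGs, taken by the tissue given in their labels. They came from adult male Sprague-Dawley rats in 4 conditions, each with arrays of both tissues. For denervation the sciatic nerve had been cut and a segment removed 6 months earlier (3 arrays per tissue), for entrapment the nerve had lain in a non-constrictive silastic tube for 6 months (3 arrays), for decompression the tube had been taken off after 6 months and 3 further months had passed (3 arrays), and the sham control gave 1 array per tissue. The Methods give 3 rats for every group, the sham control included, while only 1 sham array was given per tissue. Whether that array was a pool is not stated, nor which soleus and DRG arrays shared a rat. The p-values below therefore measure the spread between arrays as labelled, within 1 tissue only where the other lay wholly below the detection floor. In whole tissue, fewer cells of a type and less of a miRNA per cell cannot be told apart.

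MicroRNAs are short RNAs that pair with messenger RNAs, mainly through the seed, the bases near the 5′ end, and lower the output of those messengers. Striated muscle is known for a small set of miRNAs that the muscle transcription factors switch on, the myomiRs miR-1, miR-133 and miR-206. Neurons are known for miR-124, miR-9, miR-137 and miR-138, sensory cells for the cluster of miR-96, miR-182 and miR-183, and myelinating glia and neurons for miR-338.

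The sequences of the miRNAs on which the comparison turned are shown first, since several of them come in families that differ by very few bases. They are the RefSeq mature sequences (assembly GRCr8), written 5′ to 3′, with bases 2 to 8, the seed, in capitals. The myomiRs fell into 2 seed groups. miR-1 and miR-206 share the seed GGAAUGU and differ at 3 of 22 positions, and miR-133a and miR-133b share UUGGUCC and differ at 1 of 22. How well the probes of the array tell members of such a pair apart was not tested.
rno-miR-1-3p: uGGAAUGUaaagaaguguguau
rno-miR-206-3p: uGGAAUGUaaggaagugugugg
rno-miR-133a-3p: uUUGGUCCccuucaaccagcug
rno-miR-133b-3p: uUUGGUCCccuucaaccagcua
rno-miR-378a-3p: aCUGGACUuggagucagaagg
rno-miR-378a-5p: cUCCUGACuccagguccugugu
On the array, miR-378a-3p is called miR-378 and miR-378a-5p is called miR-378*, the star marking the other arm of the same hairpin in the older naming. The annotation places miR-1 at chr18:2160339-2160360 and miR-133a at chr18:2157886-2157907, both on the minus strand and inside the span of Mib1. miR-206 lies at chr9:30590747-30590768 and miR-133b at chr9:30594629-30594650 on the plus strand, with no other gene listed over them. Each of these loci thus holds 1 member of each seed group. Both arms of miR-378 lie inside the span of Ppargc1b, at chr18:57128925-57128945 and chr18:57128962-57128983 on the minus strand.

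Some of the miRNAs that marked the DRGs are shown next because they were far brighter there than in soleus, beginning with the 3 of the miR-96 cluster, which lie at 1 locus and have similar but not identical seeds.
rno-miR-96-5p: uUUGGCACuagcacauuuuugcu
rno-miR-183-5p: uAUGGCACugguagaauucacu
rno-miR-182: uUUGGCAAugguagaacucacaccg
rno-miR-9a-5p: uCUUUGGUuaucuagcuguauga
rno-miR-138-5p: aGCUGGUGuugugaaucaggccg
rno-miR-137-3p: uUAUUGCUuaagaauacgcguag
rno-miR-338-3p: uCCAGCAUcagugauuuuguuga
rno-miR-204-5p: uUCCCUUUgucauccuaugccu
miR-96, miR-182 and miR-183 lie within 3879 bases on the minus strand, chr4:59752249-59756127. miR-338 lies inside the span of Aatk (chr10:105796345-105796367, minus strand) and miR-204 inside that of Trpm3 (chr1:229743493-229743514, plus strand). The mature miR-9 sequence is encoded at 3 loci in the table, on chromosomes 1 and 2, and that of miR-138 at 2 loci, on chromosomes 8 and 19.

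The deposited signal of a miRNA is an intensity, summed over its probes after background subtraction, with a call of whether it was detected. Every array was scaled by its 75th percentile, taken over those 102 miRNAs that no array failed to detect, and the result is given below as scaled signal. Of the 348 miRNAs with the same name in all files, a median of 148.5 (at most 194) were detected on the soleus arrays and a median of 195 (at most 233) on the DRG arrays. Before scaling, the 75th percentile differed 6.32-fold among soleus arrays and 1.91-fold among DRG arrays. Pearson correlation of log2 scaled signals over the tested miRNAs lay between 0.834 and 0.996 for soleus arrays with each other, between 0.961 and 0.997 for DRG arrays, and between 0.543 and 0.722 across tissues, so that no soleus array resembled a DRG array as closely as another soleus array. Soleus sham 1 and soleus denervation 1 and 2 came in files of a layout of their own. In the authors' processed table the DRG values named for entrapment equal the scanner files labelled decompression and the reverse, which leaves the comparison over all conditions untouched but puts the names of those DRG groups in doubt.

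Differences between tissues were tested with limma on log2 scaled signal, with a mean for each of the 8 groups of tissue and condition and a spread shared by all. The test took in 234 miRNAs, those with a detection call on 3 or more arrays. Signals below the detection floor of 2.32 (the median over arrays of the lowest scaled signal with a detection call) were set to it. Where every array of a tissue was set to the floor, that tissue had no spread left. The p-value then measures only the spread of the other tissue's arrays. A miRNA was called at a Benjamini-Hochberg adjusted p under 0.05 and a difference of at least 2-fold. Over all conditions 23 miRNAs (9.83% of those tested) were significantly higher in soleus and 113 (48.3%) in the DRGs, and the median log2 difference of soleus minus DRG was -0.94. The 10 soleus and 10 DRG arrays did not overlap for 19 miRNAs higher in soleus (8.12%) and 85 higher in the DRGs (36.3%). With no scaling these were 8 and 55, and in soleus 32 when the percentile was taken over every miRNA and 37 by rank within the array.

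The number of DRG calls rested on how the tissues were brought to a common scale. With no scaling the counts were 31 in soleus and 91 in the DRGs, with the median over shared miRNAs 34 and 92, with the 75th percentile over all miRNAs 51 and 75, after quantile normalization 69 and 68, and centred on broadly expressed miRNAs 49 and 83. The share of calls that were higher in soleus thus moved from 16.9% to 25.4%, 27%, 40.5%, 50.4% and 37.1%. Relative to the scaling used, the median log2 difference of all tested miRNAs moved up by 0.34, 0.40, 0.72, 1.11 and 0.67 in the same order. The miRNAs of the myomiR list made up 40.1% to 82.8% of the summed signal of a soleus array and 0.258% to 0.402% of that of a DRG array, and the part of this in the choice of scale was not tested. All 23 soleus calls were also made under each of these 5 other scalings. Of the 113 DRG calls 61 (26.1% of those tested) were, and 16 had a difference of the opposite sign under at least 1 of them. The account below therefore rests on the 23 soleus and 61 DRG miRNAs, and says so where a miRNA is not among them.

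**Figure D1:**
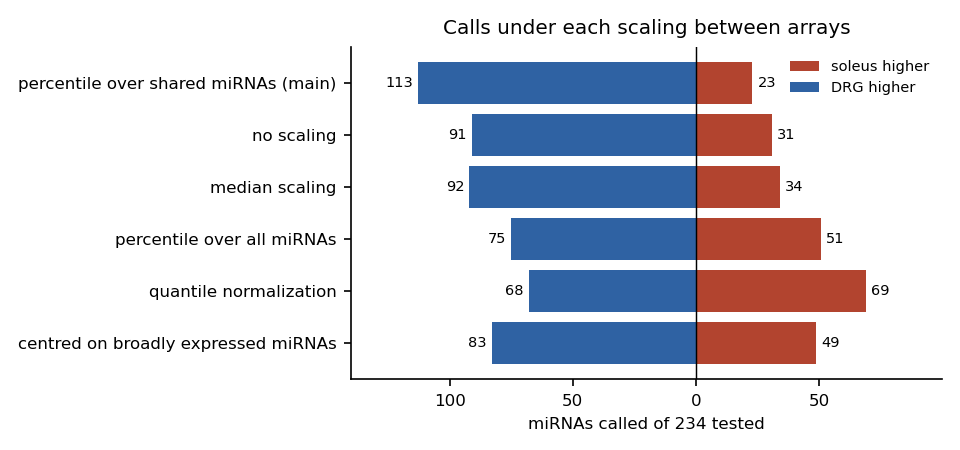
Number of miRNAs called higher in soleus (red, to the right) and in the DRGs (blue, to the left) of 234 tested, under the scaling used here and 5 others. The soleus count runs from 23 to 69 and the DRG count from 113 to 68.

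The myomiRs stood apart from all else in soleus. miR-1, which favours differentiation of muscle cells, had a scaled signal of 11076 on the lowest soleus array, a median of 35897 and 249498 on the highest (soleus denervation 3), against 33.8, 54.5 and 93.9 on the DRG arrays. The lowest soleus array lay above the highest DRG array, and the log2 difference was 9.45 (SE 0.30, adjusted p = 1.28e-13), a 698-fold higher mean level. The authors' processed table holds other values for miR-1 on 6 soleus arrays, among them the lowest and the highest: on the same scale soleus sham 1 would be 108823 in place of 11076 and soleus denervation 3 115025 in place of 249498. With that table miR-1 ran from 8562 to 115025 in soleus and its log2 difference was 9.19. miR-206, the myomiR of slow and regenerating skeletal muscle, ran from 1961 over a median of 3677 to 18686 in soleus and from 5.21 over 20.4 to 46.5 in the DRGs, where 9 of 10 arrays detected it. Its log2 difference was 7.79 (SE 0.42). miR-133a, which is known to favour proliferation of myoblasts, ran from 979 over 2024 to 12903 in soleus and from 8.25 over 11.47 to 16.3 in the DRGs, a log2 difference of 7.68 (SE 0.26). The highest of these, soleus denervation 3, is 4588 in the processed table. miR-133b ran from 23062 over 43387 to 156062 in soleus and from 147 over 235 to 326 in the DRGs, a log2 difference of 7.61 (SE 0.15). None of the 4 overlapped between tissues, and all 4 were detected on every soleus array.

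The DRG levels of these 4 miRNAs were low but seldom absent: miR-1, miR-133a and miR-133b were detected on all 10 DRG arrays. The summed scaled signal of the list was 47971 to 299177 in soleus and 269 to 479 in the DRGs. Of the 7 myomiRs on the array 6 were tested, 4 were called higher in soleus and none in the DRGs, and the median log2 difference of the list was 7.64 against -0.94 over all tested miRNAs. Over all tested miRNAs 9.83% were called higher in soleus. The members of the list that were not called were miR-499 and miR-1*, though both were called higher in soleus after quantile normalization. miR-499, from an intron of the slow myosin gene Myh7b, ran from 2.68 over 20.9 to 276 in soleus and from 15.5 over 22.3 to 28.7 in the DRGs, with a log2 difference of -0.05 (SE 0.63, adjusted p = 0.942). Its soleus arrays spread on both sides of the DRG arrays. The authors' processed table holds other values for miR-499 on 7 soleus arrays. With that table limma gave a log2 difference of 1.61 (adjusted p = 0.0153), enough for a call in soleus. miR-1*, the other arm of the miR-1 hairpin, had a log2 difference of -0.82 (adjusted p = 0.0841). miR-208, the myomiR of the heart myosin gene Myh6, was detected on no array.

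**Figure D2:**
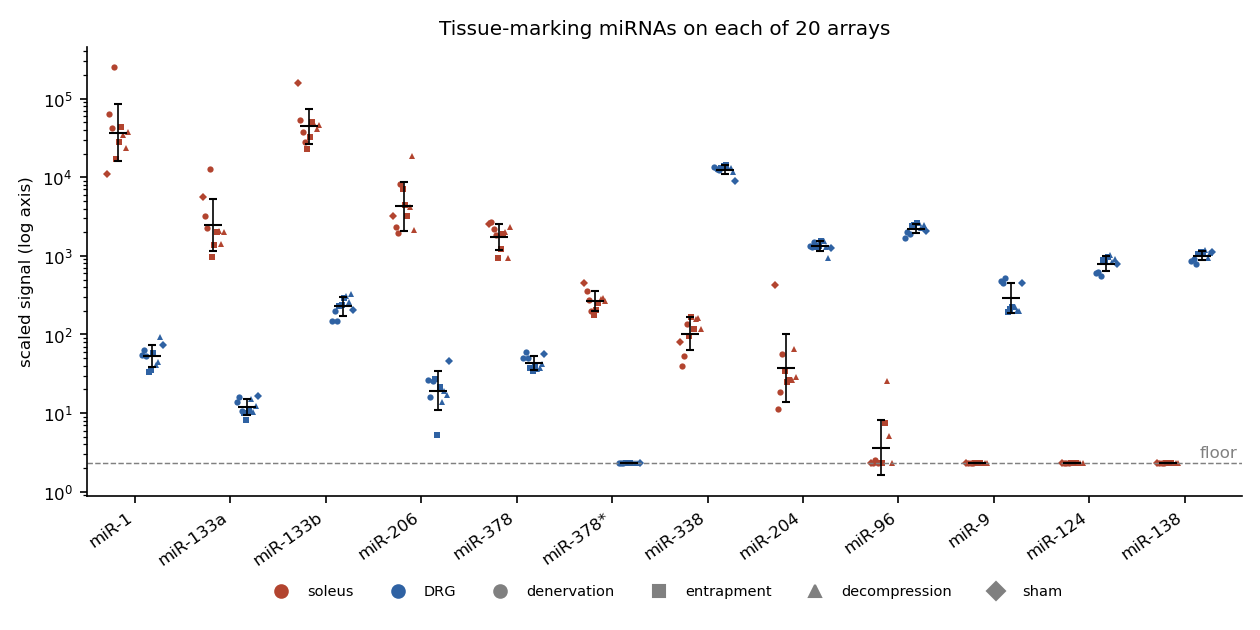
Scaled signal (log axis) of 12 miRNAs on each of the 10 soleus (red) and 10 DRG (blue) arrays, with symbols for the conditions, black bars for the mean and SD of the log2 values, and a dashed line at the floor of 2.32, to which lower values were moved. For every one of the 12 the tissues do not overlap, and levels are to be compared between tissues, not between miRNAs.

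Next to the myomiRs, both arms of miR-378 marked the muscle. miR-378, which lies in the gene of the mitochondrial coactivator Ppargc1b, ran from 951 over 1970 to 2691 in soleus and from 34.8 over 40.7 to 59.5 in the DRGs, a log2 difference of 5.32 (SE 0.16). miR-378* ran from 179 over 272 to 458 in soleus and was not detected on any DRG array. Only a bound on the ratio of signals can be given, at least 93.2-fold higher in soleus (adjusted p = 5.40e-18 with the floor in place of the DRG values). This and later bounds take the lowest signal of any detected miRNA on an array as its limit of detection. That limit is not the same for every miRNA, so the bounds depend on this choice. miR-378* was the 1 miRNA of the 348 detected on all 10 soleus arrays and on none of the DRGs.

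The other soleus markers differed by much less. miR-347 ran from 72.4 to 177 in soleus and from 10.8 to 27.9 in the DRGs, a log2 difference of 2.46 (SE 0.12). miR-22, known for its part in heart muscle growth, ran from 6326 over 10027 to 21106 in soleus and from 1861 over 2231 to 2587 in the DRGs, a log2 difference of 2.22 (SE 0.13). miR-365 had a log2 difference of 2.18 (SE 0.30) and miR-193, encoded beside it within 13923 bases on chromosome 10, one of 1.57 (SE 0.17). For each of these the lowest soleus array lay above the highest DRG array. miR-29c* had a log2 difference of 1.76 (SE 0.15) and miR-30a* one of 1.84 (SE 0.19). In the list of miRNAs tied to muscle metabolism and fibrosis, 16 of 20 members were tested, 7 were higher in soleus under every scaling (miR-378, miR-378*, miR-22, miR-22*, miR-193, miR-365 and miR-29c*), and 3 were called higher in the DRGs (miR-29b, miR-23b and miR-27b), none of them under every scaling. The list's median log2 difference was 0.65, against -0.94 over all tested miRNAs. Of all tested, 9.83% were called higher in soleus and 48.3% in the DRGs.

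The miR-30 family (miR-30a to miR-30e) had 11 tested arms. Of these 7 were called higher in soleus, under every scaling, and none in the DRGs. Over all tested miRNAs the shares were 9.83% and 48.3%. The other arms of the family were miR-30c (0.92), miR-30b-5p (0.40), miR-30d* (0.38) and miR-30c-1* (-0.32). miR-30a and miR-30e differ at 1 of 22 positions and share the seed GUAAACA with miR-384-5p, which differs from miR-30a at 10 of 22.
rno-miR-30a-5p: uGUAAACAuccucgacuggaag
rno-miR-30e-5p: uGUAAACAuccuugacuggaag
rno-miR-384-5p: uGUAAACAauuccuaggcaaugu
miR-30a ran from 1403 over 2879 to 3771 in soleus and from 851 over 947 to 994 in the DRGs, a log2 difference of 1.53 (SE 0.15), and miR-30e had one of 1.32 (SE 0.15). miR-384-5p was not detected in soleus and ran from 81.9 over 97.0 to 104 in the DRGs, at least 34.1-fold higher there. Of the 24 groups of tested miRNAs that share a RefSeq seed, holding 68 miRNAs, this was the 1 group with calls in both tissues. Of the other called arms, miR-30d (log2 difference 1.41), miR-30e* (1.53) and miR-30c-2* were higher in soleus too, as were miR-30a* and miR-30b-3p. The latter was not detected in the DRGs and was at least 2.50-fold higher in soleus.

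In the DRGs several miRNAs of the neuron list were bright that were not detected in soleus at all. miR-138, which limits the growth of dendritic spines, was not detected on any soleus array and ran from 784 over 1079 to 1172 in the DRGs, at least 364-fold higher. miR-137, a regulator of neuron maturation, ran from 784 over 953 to 1096 and was at least 329.2-fold higher. miR-124, the best-known neuronal miRNA, ran from 550 over 860 to 1011 and was at least 285-fold higher. All 3 were below detection on all 10 soleus arrays (adjusted p = 5.48e-22 for each with the floor in place of the soleus values). miR-9 ran from 194 over 222.7 to 522 in the DRGs and miR-9*, the other arm, from 306 over 347 to 390, at least 104-fold and 125.7-fold higher than in soleus, where neither was detected.

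Of 19 members of the neuron list on the array 13 were tested, 9 were higher in the DRGs under every scaling, and none was called higher in soleus with the scaling used here, though 2 to 4 were with the others (miR-212 and miR-7a* with each of them). Over all tested miRNAs 26.1% were higher in the DRGs under every scaling. The list's median log2 difference was -3.72. miR-218, found in motor neurons among others, was detected on 7 soleus arrays at up to 45.5 and ran from 183.1 to 231 in the DRGs, a log2 difference of -3.74 (SE 0.39). miR-7a had one of -3.72 (SE 0.33). The members that were not called included miR-128 and miR-212, both detected on all 20 arrays, with log2 differences of 0.51 and 0.86 towards soleus. miR-132, which shares a transcript with miR-212, was detected on no array. The summed scaled signal of the list was 224 to 473 in soleus and 3546 to 4389 in the DRGs.

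The 3 miRNAs of the sensory cluster were bright in the DRGs and near or below detection in soleus. miR-96 ran from 1701 over 2334 to 2635 in the DRGs, while in soleus it was detected on 1 array, at 26.0. Its log2 difference of -9.26 (SE 0.35, adjusted p = 1.21e-12) has the floor in place of most soleus values and no exact size. miR-183 ran from 286 over 470 to 508 in the DRGs and was not detected in soleus, at least 149-fold higher. miR-182 ran from 296 over 336.7 to 377.7 in the DRGs and was detected on 2 soleus arrays, with 31.2 the highest value (log2 difference -6.28, SE 0.14, likewise set by the floor). Their summed scaled signal reached at most 33.7 on a soleus array and at least 2289 on a DRG array.

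Of the list for myelinating and satellite glia, miR-338, which is also known from neurons, and miR-204 differed most. miR-338 ran in the DRGs from 8873 over 12996 to 14168, against 39.6 over 118 to 168 in soleus, where it was still detected on every array (log2 difference -6.93, SE 0.19, adjusted p = 1.79e-14). miR-204 ran from 936 over 1311 to 1561 in the DRGs and from 11.3 over 27.6 to 427 in soleus, with all but soleus sham 1 at or below 66.3 (log2 difference -5.13, SE 0.25). Soleus sham 1 would be 268 by the processed table. Neither overlapped between tissues. Their relatives differed by less. miR-211, which differs from miR-204 at 1 of 22 positions and has the same seed, was not called (log2 difference -1.24, adjusted p = 0.0531). miR-338* (-1.37) and miR-219-5p (-1.41), an miRNA of myelin-forming cells, were called higher in the DRGs, but miR-219-5p under none of the 5 other scalings and miR-338* under 2. Both 3p arms of miR-219 were detected on no array, and miR-204* was detected on 3 DRG arrays and not called. Of the 8 members of the list 6 were tested and 4 called higher in the DRGs, 2 of them under every scaling, against 48.3% and 26.1% of all tested miRNAs.

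The largest group of DRG markers came from the imprinted Dlk1-Dio3 locus, a long run of miRNA hairpins expressed from the maternal chromosome and known for high levels in nervous tissue. Of 48 members on the array 37 were tested, 32 were called higher in the DRGs, 24 of them under every scaling, and 1 was called higher in soleus. With the other scalings 1 to 4 members were called higher in soleus. Of all tested miRNAs 48.3% were called higher in the DRGs, and 26.1% under every scaling. The list's median log2 difference was -3.07. The 26 tested members with a RefSeq sequence spanned 253361 bases of chromosome 6 (chr6:134326468-134579828). miR-376a ran from 282 over 345 to 374.9 in the DRGs and was detected on 3 soleus arrays at up to 24.7 (log2 difference -6.51, SE 0.20). miR-410, detected on 3 soleus arrays, had a log2 difference of -5.10 (SE 0.19) and miR-379, detected on 5, one of -4.77 (SE 0.27). In these 3 the floor stands in for the soleus signals below it, so that the sizes depend on it. miR-127, detected on 8 soleus arrays, had a log2 difference of -5.01 (SE 0.18). miR-376b-3p was not detected in soleus and was at least 22.5-fold higher in the DRGs.

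With the scaling used here the exception was miR-494, with a log2 difference of 1.24 (SE 0.23) towards soleus. It was 8717 on soleus sham 1, 228 to 886 after denervation, and 140.6 to 187 on the other 6 soleus arrays, against 99.0 to 277 in the DRGs. The tissues overlapped, and the difference within entrapment was 0.07 and within decompression -0.02, so that the call rested on the sham and denervation arrays. miR-139-3p was similar, with 355 on soleus sham 1, detection on 5 soleus arrays, and a log2 difference of 1.94 (SE 0.40) over all but -0.34 within decompression. The processed table holds other values for miR-139-3p on 4 soleus arrays, with 1034 on soleus sham 1 and 1.60 and 1.56 in place of 16.8 and 23.1 on entrapment 1 and 2, and gives a log2 difference of 1.17. Of the other tested members of the Dlk1-Dio3 list, miR-134, miR-376a*, miR-409-3p and miR-487b were not called with the scaling used here. miR-487b was called higher in soleus with the percentile over all miRNAs, after quantile normalization and centred on broadly expressed miRNAs. After quantile normalization miR-409-3p and miR-539 were called higher in soleus too, though miR-539 was called higher in the DRGs with the scaling used (-1.04).

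**Figure D3:**
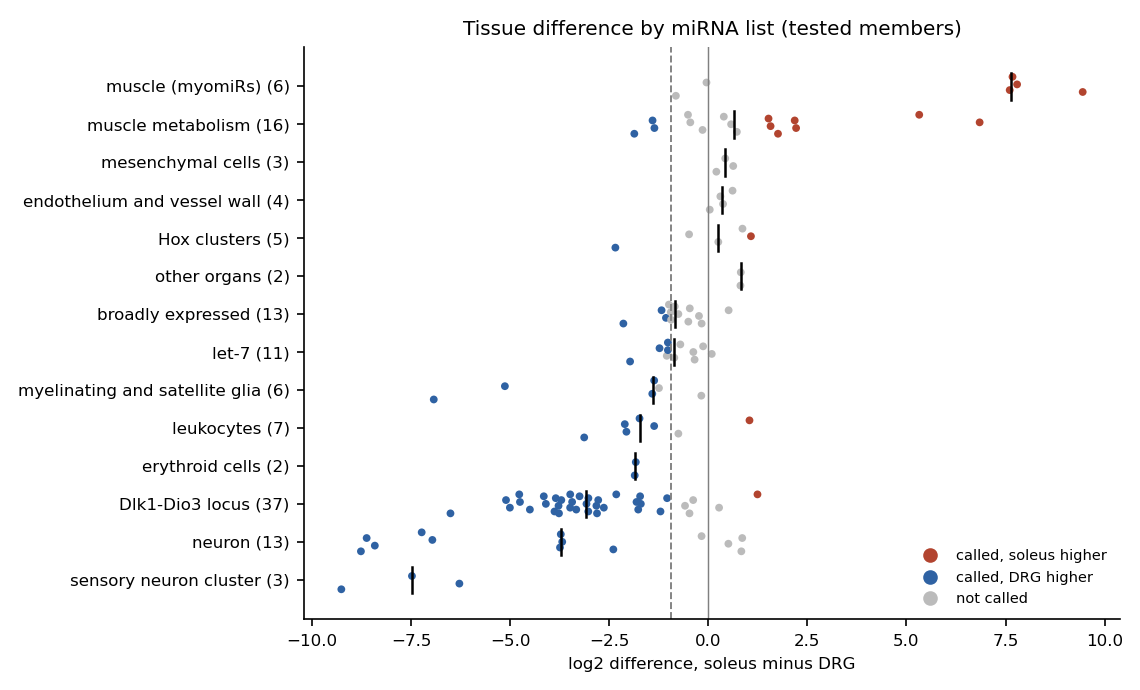
Log2 difference of soleus minus DRG for each tested member of 14 lists (number tested in brackets), with red for members called higher in soleus, blue for those called higher in the DRGs and grey for the rest. Black bars are the medians of the lists, the solid grey line is 0 and the dashed line is the median of all tested miRNAs, -0.94. The muscle list has a median of 7.64, the sensory cluster one of -7.48.

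The detection calls do not depend on scaling between arrays, but fewer miRNAs were detected on the soleus arrays (median 148.5 against 195 on the DRG arrays). Of 348 miRNAs, 30 were detected on all 10 DRG arrays and on no soleus array. Of these 14 belonged to the Dlk1-Dio3 list (48 members on the array), 6 to the neuron list (19 members) and 1 to the sensory cluster (3 members). Those in none of the lists included miR-551b, at least 17.7-fold higher, miR-325-3p, at least 15.1-fold, and miR-363, at least 34.1-fold. miR-34b and miR-34c, which lie within 547 bases on chromosome 8, were also among the 30, at least 9.14-fold and 5.65-fold higher. miR-34a has the same seed, GGCAGUG, from another locus. It was detected on all 20 arrays, ran from 938 over 1670 to 2033 in the DRGs and from 58.9 over 89.2 to 220 in soleus, and had a log2 difference of -4.001 (SE 0.17). In all, 28 miRNAs were detected on at least 1 soleus array and no DRG array, 45 the other way round, and 82 on no array.

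Outside the lists, 19 of the 61 miRNAs higher in the DRGs under every scaling and 9 of the 23 higher in soleus were left. Besides those named above, the DRG group held miR-326 (log2 difference -4.15), miR-598-3p, not detected in soleus and at least 11.02-fold higher, miR-301a (-2.93), miR-652 (-2.82), miR-130a (-2.30) and miR-125b-5p (-2.09), a developmentally regulated miRNA with 4313 to 5677 in the DRGs and 736 to 2082 in soleus.

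Part of the profile was common to both tissues. Of the 102 miRNAs detected on all 20 arrays, 17 were called higher in soleus, 33 higher in the DRGs, and 52 were not called. Of all 234 tested miRNAs 9.83% were called higher in soleus and 48.3% in the DRGs, and 98 were not called. The 102 were also the miRNAs on which the arrays were scaled, and these counts hold for the scaling used here. The smallest differences belonged to miR-345-5p (-0.03, SE 0.11), miR-664 (-0.06, SE 0.11), let-7d (0.09, SE 0.08), miR-101b (-0.10, SE 0.12) and miR-26a (0.11, SE 0.07). miR-26a ran from 3312 over 3821 to 4551 in soleus and from 2993 over 3556 to 4266 in the DRGs. The arrays of the tissues overlapped for all 5. let-7d and miR-26a stayed above 0 under the 5 other scalings, and reached 0.995 and 1.02 with the percentile over all miRNAs. The differences of miR-345-5p, miR-664 and miR-101b were above 0 under each of the 5, with 1.35 for miR-664 after quantile normalization. How small these differences were thus depended on the scaling.

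**Figure D4:**
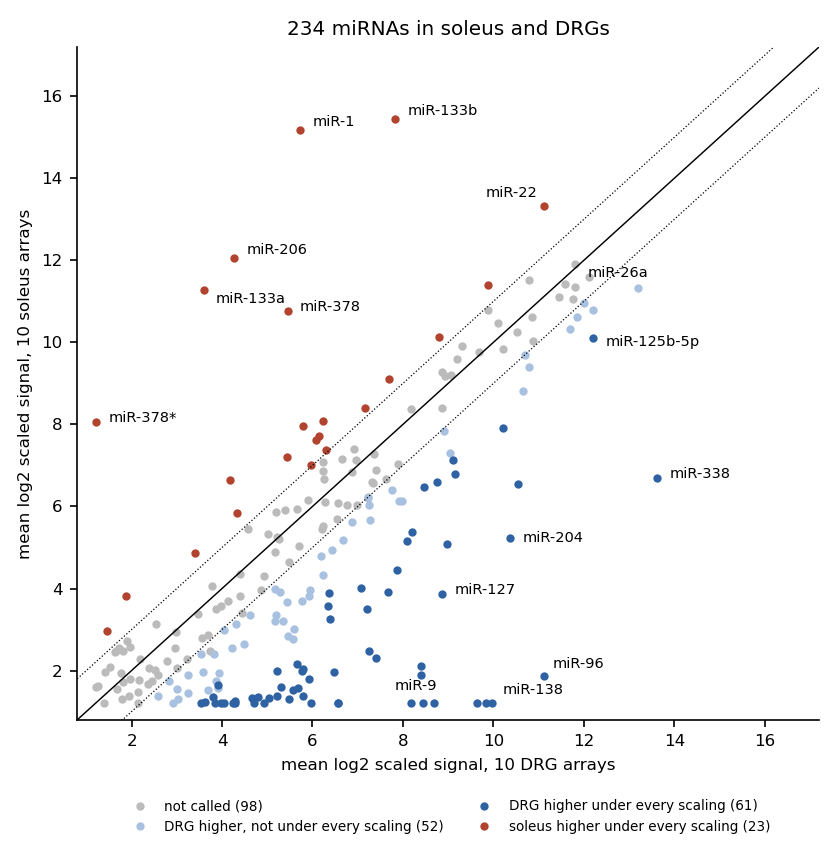
Mean log2 scaled signal of each of the 234 tested miRNAs on the 10 soleus arrays (vertical axis) and the 10 DRG arrays (horizontal axis), with equal levels on the solid line and 2-fold differences on the dotted lines. The 23 miRNAs higher in soleus under every scaling are red, the 61 higher in the DRGs under every scaling dark blue, and the points along the bottom edge are miRNAs at the floor in soleus.

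Lists for cells that both tissues may hold moved little or with the scaling. For comparison, 48.3% of all tested miRNAs were called higher in the DRGs, 26.1% under every scaling, and 9.83% in soleus. Their median log2 difference was -0.94. The 4 tested miRNAs of endothelium and vessel wall (miR-126, miR-126*, miR-143 and miR-145) and the 3 of mesenchymal cells (both arms of miR-199a and miR-214) gave no call with the scaling used, with medians of 0.34 and 0.43, and up to 3 calls each in soleus under the others, with medians up to 1.25 and 1.46. Of the 13 tested broadly expressed miRNAs 3 were called higher in the DRGs, with 1, miR-103, under every scaling, and the median was -0.85 (0.27 after quantile normalization). Of the 11 tested let-7 members 4 were called higher in the DRGs, with 1, let-7e, under every scaling (log2 difference -1.97, SE 0.10), and the median was -0.86 (0.05 with the percentile over all miRNAs). Of the 5 tested Hox cluster miRNAs 1 was called in each tissue and 3 (miR-10b, miR-196b and miR-196c) in neither, and miR-196c was called higher in soleus under each of the other scalings. miR-10a-5p was higher in the DRGs (440 to 692 against 76.9 to 159, log2 difference -2.34, SE 0.10), and miR-196a, from a more posterior position of these clusters, was higher in soleus (1.08, SE 0.12), with overlap of the arrays.

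miRNAs of the lists for blood and immune cells were detected in both tissues, and cells were not counted. The erythroid miRNAs miR-451 and miR-144 were detected on all 20 arrays, with log2 differences of -1.86 (SE 0.45) and -1.83 (SE 0.47). Both were called higher in the DRGs, though not under every scaling, and the summed level of this list was 167 to 1982 in soleus and 801 to 5316 in the DRGs. Of the 7 tested leukocyte miRNAs 5 were called higher in the DRGs, where 48.3% of all tested miRNAs were, miR-342-3p alone under every scaling (-3.13, SE 0.15), and miR-150, of lymphocytes, was higher in soleus (1.04, SE 0.09). The summed level of the leukocyte list was 358 to 896 in soleus and 915 to 1555 in the DRGs, and its part in other differences was not tested. Of 22 miRNAs typical of other organs, such as miR-122 of liver, miR-375 of pancreas and the miR-200 family of epithelia, 18 were detected on no array, 2 were tested (miR-743a and miR-878) and neither was called, though both were higher in soleus under some other scalings.

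Both arms of a hairpin could be followed for 40 miRNAs. In 4 of these pairs both arms were called higher in soleus (miR-22, miR-30a, miR-30e and miR-378), in 9 both were called higher in the DRGs, among them miR-9, miR-136 and miR-379, and in none were the arms called in opposite tissues. In 22 pairs 1 arm was called and in 5 neither. The difference had the same sign in 33. Of all tested miRNAs, taken singly, 9.83% were called higher in soleus and 48.3% in the DRGs, with a median log2 difference of -0.94. Whether arms of a hairpin went together more often than unrelated miRNAs was not tested. The gap between arms was widest for miR-1, with 9.45 for the main arm and -0.82 for miR-1*, for miR-138, with -8.77 and -0.17 for miR-138*, and for miR-376a, with -6.51 and -0.47. miR-1* was detected on 6 soleus and 5 DRG arrays, miR-138* on 2 and 4, and miR-376a* on none and 5.

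Within each condition the counts were 33 in soleus (14.1%) and, in the DRGs, 45.7% of those tested for denervation, 20 (8.55%) and 113 (48.3%) for entrapment, 26 (11.1%) and 118 (50.4%) for decompression, and 31 (13.2%) and 97 (41.5%) for sham, where 1 array stood against 1 and the spread was borrowed from the larger groups. These counts moved with the scaling as those over all did, in soleus up to 68 for denervation, 66 for entrapment and 67 for decompression, and between 11 and 58 for sham. In the DRGs the entrapment count fell to as few as 60. Of the 23 soleus calls 14 were also called in all 4 conditions, and 70 of the 113 DRG calls. Calls made over all under every scaling were narrowed to those also made within each condition, without overlap of the arrays, with the scaling used. This left 14 for soleus and 50 for the DRGs. The other scalings were not required within conditions or for the overlap. The 14 were miR-1, miR-206, miR-133a, miR-133b, miR-378*, miR-378, miR-347, miR-22, miR-365, miR-29c*, miR-30a, miR-30b-3p, miR-22* and miR-30c-2*. Across the conditions the log2 difference was 7.25 to 10.57 for miR-1 (the lowest, within sham, is 10.54 with the authors' processed values), 6.12 to 8.37 for miR-206, 7.17 to 8.42 for miR-133a and 7.04 to 9.56 for miR-133b. It was -9.80 to -8.51 for miR-96 and -7.59 to -6.45 for miR-338.

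A test of whether the tissue difference itself differed between the 4 conditions passed for 64 miRNAs (27.4%) at an adjusted p under 0.05. This number depended on single arrays and on the processing: it was 14 without soleus sham 1, 14 without DRG sham 1, 102 without soleus denervation 3, 7 with no scaling between arrays and 42 with the replicate number as a block. The 5 smallest p-values belonged to miRNAs whose tissue difference moved with a few groups. miR-126* was 2.19 on soleus sham 1 and 29.3 to 91.6 on the other soleus arrays, and in the DRGs 69.7 to 72.3 on the sham and denervation arrays but 22.1 to 26.9 on the other 6 (adjusted p = 2.11e-07). miR-9 in the DRGs was 456 to 522 on the sham and denervation arrays and 194 to 223.1 on the other 6 (adjusted p = 4.34e-05). miR-384-3p was detected only on those same 4 DRG arrays, at 8.96 to 12.7 (adjusted p = 2.14e-05). The DRG arrays of sham and denervation also had more miRNAs detected, at least 213 against at most 200 on the other 6, and the part of this in the 3 results was not tested. miR-182 was 10.8 to 31.2 in denervated soleus, detected on 2 of the 3 arrays, and stayed below the floor in the other soleus groups (adjusted p = 6.32e-05). miR-760-5p was detected in soleus on the 3 denervation arrays, at 9.04 to 19.2, and in the DRGs on the sham array (adjusted p = 4.34e-05).

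**Figure D5:**
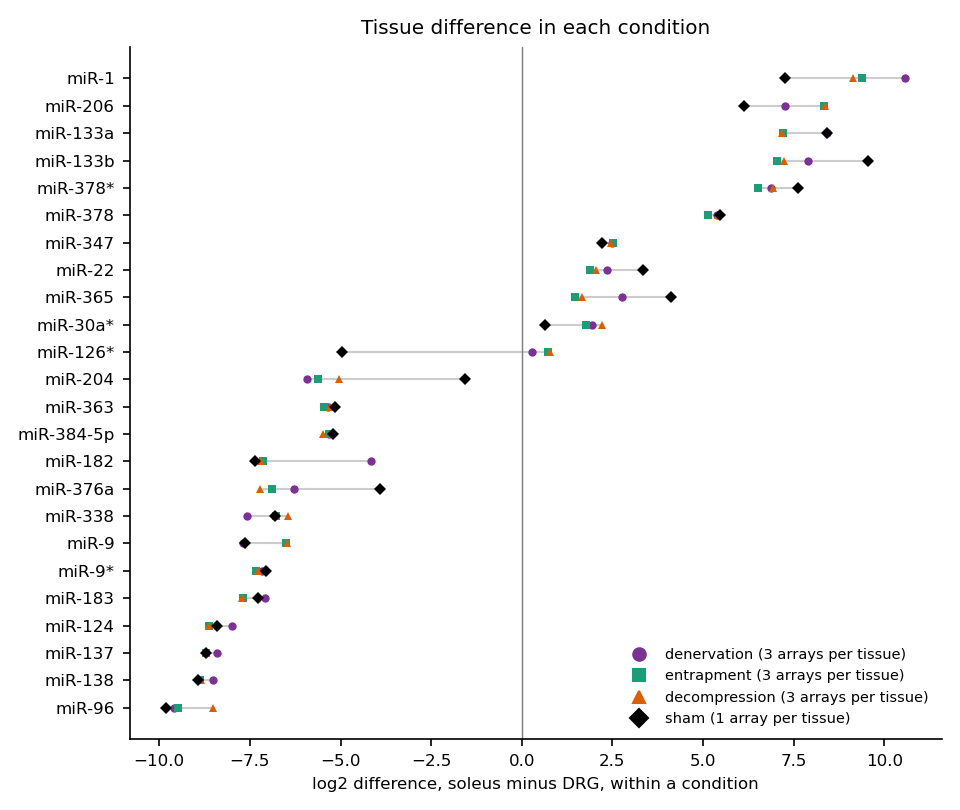
Log2 difference of soleus minus DRG within each of the 4 conditions for 24 miRNAs, with a grey line from the lowest to the highest condition. Apart from miR-126* every miRNA shown lies on the same side of 0 in all 4 conditions, while miR-204, miR-182 and miR-376a differ widely in size.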

How the data were processed

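For each of the 20 arrays the authors deposited 1 intensity per miRNA, the total gene signal. It is background-subtracted, added up over the probes of the miRNA and not scaled between arrays, and has a detection call. The submitters' processing notes name Agilent Feature Extraction 9.5.3. A processed table, deposited as a signal per miRNA, was used as an alternative. The labels describe amplification with Cy3-CTP and the Methods ligation of pCp-Cy3. Control features were left out of the tests, and of 45 none separated the tissues before scaling. Soleus arrays varied widely on them: the control hur_2_20 ran from 4565 to 26867 in soleus and from 16320 to 20874 in the DRGs. A smaller technical offset between the tissues was not tested by this. The 2 of 350 miRNAs named differently between files were left out.

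Arrays were grouped by their labels, scaled, floored and put on a log2 scale as described above, and tested with limma 3.58.1 (lmFit and eBayes, R 4.3.3; 12 residual and 2.12 prior degrees of freedom), two-sided. The script was tested on simulated data. A bound for an undetected miRNA is the mean of the bright tissue over the dim tissue's lowest detected signal or its own, whichever was higher per array, and never below the floor. It is a bound on measured signals only. Detection had no single cut-off, since miR-493 went undetected on soleus arrays at up to 19.8. Array names follow an older miRBase release and were matched by hand to RefSeq arms, giving sequences for 204 of 348 miRNAs and 176 of 234 tested. Figures were drawn with matplotlib 3.10.9.

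Named were the marker miRNAs, all members of the myomiR, sensory cluster and glia lists, the 12 largest differences per tissue (called, in that direction in each condition, without overlap, detected on at least 8 of its 10 arrays), the 5 smallest differences, the 5 smallest p-values between conditions, and the 2 largest differences of each other list. miRNAs named beyond this rule were chosen after their values were seen. The comparison, the miRNAs and the lists were chosen with earlier results of these data known. Alternatives were 5 scalings, ranks, other filters, a pseudocount, the processed table, a replicate block, an intensity trend, an additive model, no fold minimum, leaving out the 3 arrays of another layout, and leaving out each array in turn. Slides and scan dates are not given in the sources used here and were not tested as batches.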

Additional observations from a re-analysis of the deposited data

Results flagged for a closer look

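On 4 occasions an array lay far from the other 9 of its tissue, by the gap to its neighbour as a share of the whole range, among 49 sets of 10 arrays looked at for the named miRNAs. Chance gives about 1 in 20. That rate takes the 10 arrays of a set as alike, but each set mixed the 4 conditions, with 1 sham array. Where the sham array was the far one, array and condition cannot be told apart. miR-133b was 156062 on soleus sham 1 and 23062 to 53957 on the other soleus arrays (gap 0.555 of the range). miR-204 was 427 on soleus sham 1 and 11.3 to 66.3 on the others (0.513). miR-338 was 8873 on DRG sham 1 and 11600 to 14168 on the others (0.573). miR-204 was 936 on DRG decompression 3 and 1259 to 1561 on the others (0.579). In each case the array stayed on its own tissue's side.

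The tissue difference of 5 named miRNAs differed between conditions by limma's F test, at adjusted p-values of 2.11e-07 for miR-126*, 2.14e-05 for miR-384-3p, 4.34e-05 for miR-9, 4.34e-05 for miR-760-5p and 6.32e-05 for miR-182. They had the smallest p-values of the 234, which is how they were chosen.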

How the results depend on the processing

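The scaling between arrays moved the counts most, and the cause was not tested. Over all conditions the soleus count of 23 became 51 with the percentile over all miRNAs, 69 after quantile normalization, 49 centred on broadly expressed miRNAs and 50 with no fold minimum, and the DRG count of 113 became 75 with the percentile over all miRNAs and 68 after quantile normalization. For denervation the soleus count was 50 and 68 under the last 2 scalings. For entrapment it was 33 with no scaling, 40 with the median, 60 with the percentile over all miRNAs, 66 after quantile normalization and 48 centred on broadly expressed miRNAs, and the DRG count was 60 with no scaling, 65 on the all-miRNA percentile and 66 after quantile normalization. For decompression the soleus count was 63 with the percentile over all miRNAs, 67 after quantile normalization and 55 centred on broadly expressed miRNAs, and the DRG count 70 with no scaling, 70, 69 and 73 in the same order. For sham the soleus count was 11 with no scaling and 58 after quantile normalization, and the DRG count 60 after quantile normalization. miRNAs without overlap numbered 8 in soleus and 55 in the DRGs with no scaling. In soleus they were 32 when the percentile was taken over all miRNAs, and 37 by rank within the array. The log2 difference of miR-219-5p (0.67), miR-211 (0.67) and miR-1* (1.11) was above 0 after quantile normalization, that of miR-1* also with the percentile over all miRNAs, and those of miR-499 (1.83), miR-664 (1.35), miR-345-5p (0.84) and miR-101b (0.76) under each of the 5 other scalings (values after quantile normalization). With the authors' processed values miR-499 was at 1.61.

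Leaving out 1 array at a time gave 22 to 24 soleus and 112 to 116 DRG calls over all, 28 to 34 and 102 to 113 for denervation, 17 to 22 and at most 119 for entrapment, 24 to 26 and 113 to 119 for decompression, and 31 to 32 and 95 to 109 for sham. The number of miRNAs whose tissue difference differed between conditions ran from 14 to 102, at 14 without soleus sham 1, 14 without DRG sham 1 and 102 without soleus denervation 3, and was 7 with no scaling. Without the 3 arrays of another file layout, 21 of the 23 soleus and 108 of the 113 DRG calls were made again, and with the authors' processed values all 23 and all 113. Over all results and settings other than single arrays left out, 520 values kept direction and side of the threshold, 7 fell short of it, 7 newly passed it and 5 changed sign while called in at least 1 of the settings compared. With single arrays left out these were 776, 0, 4 and 0.

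Deviations of soleus and DRG arrays of equal replicate number correlated at 0.558, 0.179 and 0.225 in decompression. The values were 0.132, -0.261 and -0.286 in denervation, and -0.176, -0.0627 and -0.0107 in entrapment. For the DRGs the names of entrapment and decompression, and some of their replicate numbers, differ between the scanner files and the processed table. The labels do not tie soleus and DRG arrays to the same rats, so the replicate numbers were not taken as pairs. With the replicate block the counts over all were 23 and 114 and the number differing between conditions was 42.

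The labels give 1 sham array per tissue, so the within-sham values have no replicate check. Soleus arrays varied more than DRG arrays (median residual SD 0.388 against 0.114 on the log2 scale) while the fit shares 1 spread, and signals under the floor of 2.32 set no order among dim miRNAs.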
